A study of Mus musculus with 36 samples.

Results

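The 6 metabotropic glutamate receptor genes Grm2, Grm3, Grm4, Grm5, Grm7 and Grm8 were read from a table of counts for 16614 genes in mouse brain. They were chosen by gene name, and other genes of the family were not analysed here. The libraries hold ribosome-protected fragments (RPFs), the pieces of mRNA that a ribosome shields from nuclease, and RNA-seq of the whole-brain homogenate. RPFs were taken from the pellet of a sucrose gradient, which holds RNA granules with stalled ribosomes and is called Granule in the labels, and from fraction 5/6, which holds polysomes. Brains came from C57BL/6 mice at postnatal day 5, either WT or FMR1 KO, a whole-body loss of the fragile X protein FMRP, and 10 brains were pooled for a preparation. The standard nuclease preparation (10 mM MgCl2) is the one compared below, and the low nuclease preparation (2.5 mM MgCl2) serves as an alternative. There were 3 libraries for each of 12 combinations of genotype, material and preparation, 36 in all. The study describes its replicates as biological preparations. The labels do not tie each library to its own pool of brains, and the p-values measure the spread between these libraries.

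Metabotropic glutamate receptors are class C G protein-coupled receptors that bind glutamate with a large extracellular domain. Grm5 is a group I receptor, which acts through Gq and phospholipase C and sits mostly on the postsynaptic side. Its activation drives a form of long-term depression that needs new protein synthesis and is altered in FMR1 KO mice. Grm2 and Grm3 are group II receptors and Grm4, Grm7 and Grm8 group III receptors, both acting through Gi/o to lower cyclic AMP, and many of them restrain transmitter release. Grm3 is also well known in astrocytes.

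All members are protein-coding genes on GRCm38. Grm2 lies at chr9:106643095-106656082, Grm3 at chr5:9485541-9725170, Grm4 at chr17:27422387-27521403 and Grm8 at chr6:27275119-28135178, all on the minus strand. Grm5 lies at chr7:87584168-88134907 and Grm7 at chr6:110645581-111567230, both on the plus strand. Their coding sequences are of like length, from 2616 bases in Grm2 to 3513 in Grm5. Their annotated exons are not. The coding sequence takes 86.5% of the exon length of Grm3, 53.5% of Grm2, 46.6% of Grm7, 45.8% of Grm4, 34.3% of Grm5 and 27.5% of Grm8, beside a median of 34.9% over the genes compared in WT. RPFs come mainly from coding sequence and RNA-seq reads from the whole mRNA, so this share can enter a comparison of RPFs with RNA-seq. The exon length joins the exons of all annotated transcripts of a gene, and the coding length is that of a single transcript.

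RPF piles were found on the mRNA of Grm3 and of no other member. The sequences below show its start codon, with that of Grm4 for comparison because these genes stand farthest apart in the pellet, and the 2 places where 3 pellet libraries had a Grm3 peak within 6 nt of the middle of the same peak. Capitals mark the ATG in the first pair and the 6 bases around the middle of the peak in the second pair, all from GENCODE M21 transcripts, 5′ to 3′.
Grm3 start: gaaccaggattcATGaagatgttgaca
Grm4 start: agcctttccgaaATGtccgggaaggga
Grm3 codon 474: ttcaacttccagCATATAggtggaaagtat
Grm3 codon 636: cttcattgctaaGCCATCgcctgtcatctg

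Without Cdk8, which took 36.7% to 63.4% of the counts of the standard RPF libraries and was left out, pellet libraries held 11922190 to 21274803 counts, fraction 5/6 libraries 4284209 to 16618125 and RNA-seq libraries 112240104 to 147207607. Fmr1 stood at 64.6 to 67.8 CPM (counts scaled to the library total without Cdk8) in WT pellets and at 4.79 to 4.93 CPM in FMR1 KO pellets, and at 60.6 to 71.9 CPM in WT RNA-seq and 16.4 to 18.1 CPM in FMR1 KO RNA-seq. FMR1 KO fraction 5/6 held 5.98 to 10.7 CPM. In WT fraction 5/6 Fmr1 was at 68.6 CPM or more in replicates 1 and 2, and at 3.17 CPM in the library labelled WT fraction 5/6 replicate 3. Enrichment in WT and the comparisons of genotypes in fraction 5/6 and in enrichment rest on this library and are also given without it. The summed level of 5 neuronal markers was 4074 to 8679 CPM and that of 5 astrocyte markers 242.4 to 547.1 CPM over the standard libraries, so markers of both were present in every group. Fewer cells of a type and less RNA per cell cannot be told apart in these bulk samples. In the low nuclease RNA-seq libraries, 3.66% to 85.0% of the counts fell on the 10 most abundant genes, and levels there were uneven.

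The first question was which of the receptors were most abundant. In WT RNA-seq, per exon kilobase, Grm3 came first at 11.4 ± 2.34 CPM per kb (SD, n = 3). It was followed by Grm5 at 6.61 ± 2.38, Grm7 at 5.95 ± 3.26, Grm4 at 4.12 ± 0.27 and Grm2 at 3.57 ± 0.92 CPM per kb. Grm8 was last at 1.05 ± 0.56 CPM per kb. Neighbours from Grm5 to Grm2 differed by less than their spread. FMR1 KO RNA-seq had the same first 3 and the same last gene, with 10.0 ± 1.41 for Grm3 and 0.646 ± 0.081 CPM per exon kb for Grm8.

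The order of the pellet RPFs differed from that of the RNA in the place of Grm4. In WT pellets, per coding kilobase, Grm3 again came first at 12.6 ± 2.88 CPM per kb (SD, n = 3), and Grm5 at 6.36 ± 2.12 and Grm7 at 6.27 ± 2.43 did not differ beyond their spread. Grm2 stood at 2.67 ± 0.58 and Grm8 at 1.13 ± 0.33 CPM per kb. Grm4 was last, at 0.647 ± 0.087 CPM per coding kb. FMR1 KO pellets gave the same order, with 12.3 ± 3.66 for Grm3, 6.39 ± 1.72 for Grm5, 5.06 ± 1.64 for Grm7, 4.71 ± 3.18 for Grm2, 1.46 ± 0.28 for Grm8 and 0.691 ± 0.256 CPM per coding kb for Grm4. Their neighbours from Grm5 to Grm2 again differed by less than their spread.

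**Figure D1:**
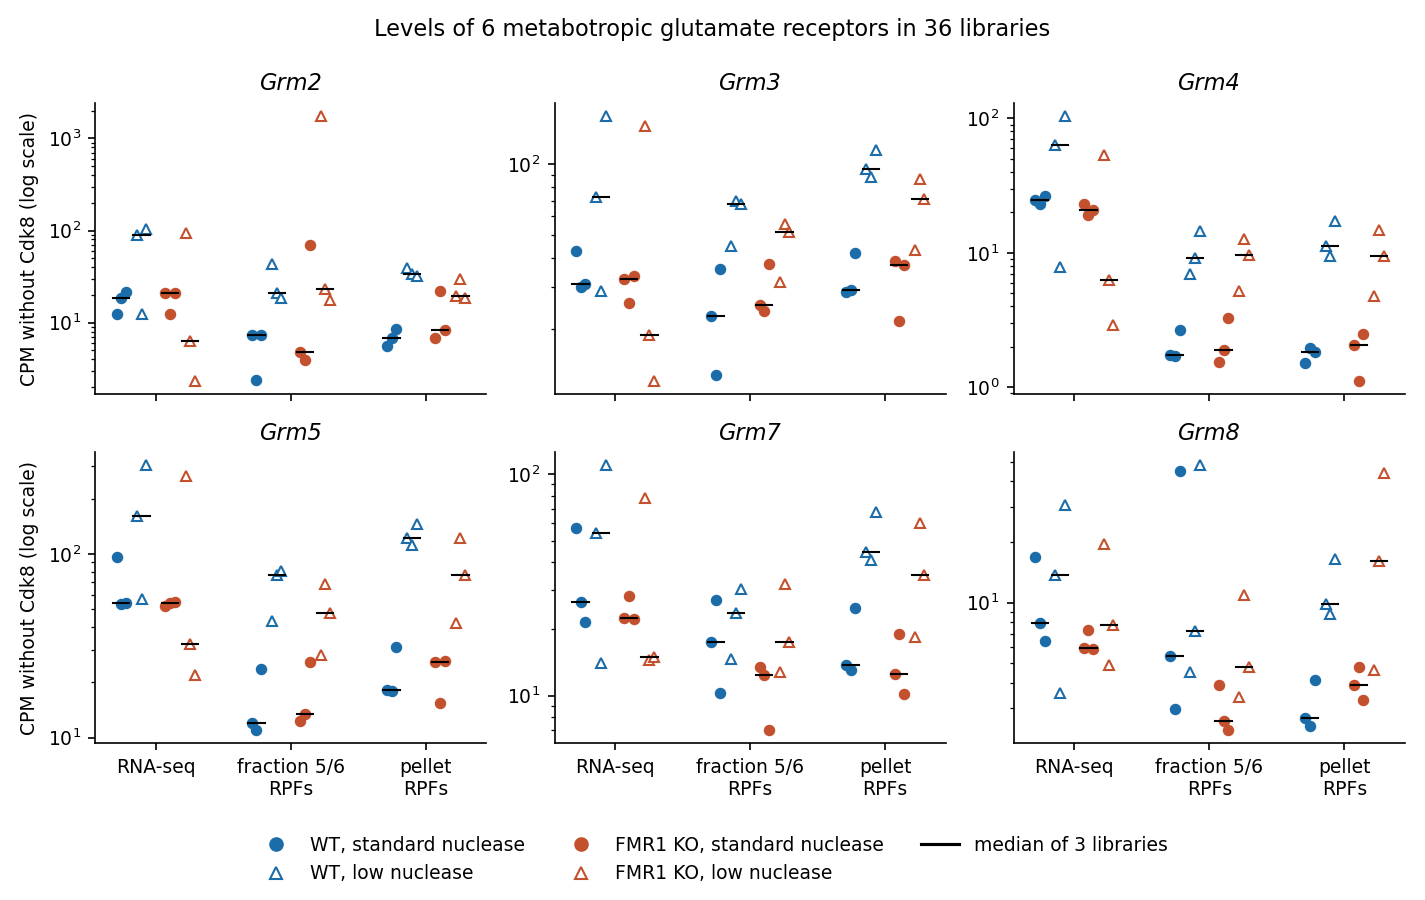
Levels of the 6 receptors in each of the 36 libraries, as CPM without Cdk8 on a log axis, for RNA-seq, fraction 5/6 RPFs and pellet RPFs. Each point is a library and each bar the median of 3, and the standard nuclease points of Grm4 lie far lower in RPFs (1.12 to 3.27 CPM) than in RNA-seq (19.3 to 26.3 CPM), while those of Grm3 overlap between materials.

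Occupancy, the level of pellet RPFs relative to RNA-seq, was high for Grm3 and low for Grm4 in both genotypes, and the other 4 receptors did not pass the test. Of the members, 1 was called higher and 1 lower in WT and the same numbers in FMR1 KO, against 30.5% of all genes called higher and 34.4% lower in WT and 30.8% and 35.2% in FMR1 KO. In either direction 64.9% of all genes were called in WT and 66.1% in FMR1 KO, so the share of members called lay below the background. The split of all calls follows the scaling, with 47.0% of WT and 46.6% of FMR1 KO calls higher by TMM and 10.9% and 10.6% by library size alone. The median log2 fold change of the members was -0.30 in WT and 0.43 in FMR1 KO, beside -0.10 and -0.07 for all genes tested.

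Grm4, a presynaptic group III receptor best known from cerebellar and striatal terminals, gave few RPFs for its RNA. It had 24.6, 23.1 and 26.3 CPM in the WT RNA-seq libraries and 23.2, 19.3 and 20.7 CPM in FMR1 KO. In pellet RPFs it had 1.504, 1.96 and 1.85 CPM in WT and 2.08, 1.12 and 2.48 CPM in FMR1 KO, from 14 to 32 counts in a library. Every pellet library lay far below every RNA-seq library. The log2 fold change of pellet over RNA was -2.66 ± 0.18 (SE) in WT, a 6.33-fold lower level, with an adjusted p of 3.8e-06 (edgeR quasi-likelihood test, Benjamini-Hochberg). In FMR1 KO Grm4 was at -2.40 ± 0.19, 5.28-fold lower, with an adjusted p of 6.2e-06 in the same test. In WT 6.39% of the genes tested had a lower occupancy than Grm4, and in FMR1 KO 7.79%. Fraction 5/6 was as poor in Grm4 as the pellet, at 1.55 to 3.27 CPM over both genotypes.

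Grm3, the group II receptor of neurons and astrocytes, lay at the other end. Its levels in CPM were alike in the materials, with 28.5, 29.2 and 42.0 CPM in WT pellets and 43.0, 30.2 and 31.0 CPM in WT RNA-seq. FMR1 KO pellets held 38.9, 21.5 and 37.3 CPM and FMR1 KO RNA-seq 32.5, 25.7 and 33.6 CPM. The groups overlap on this scale. The fit scales libraries by TMM, which puts the median gene near 0, whereas most genes had a lower CPM in the pellet than in RNA: by library size alone the median of all genes was -1.26 in WT and -1.16 in FMR1 KO. Relative to that typical gene Grm3 was high, with a log2 fold change of 1.10 ± 0.23 (SE) in WT, 2.15-fold, and an adjusted p of 0.0034 (edgeR quasi-likelihood test). In FMR1 KO the value for Grm3 was 1.17 ± 0.13, 2.25-fold, with an adjusted p of 6.4e-05 in that test. Taken against the median gene of each scaling, Grm3 stood at 1.209 by TMM and 1.193 by library size alone in WT, and at 1.241 and 1.257 in FMR1 KO.

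The high occupancy of Grm3 did not pass the test in the low nuclease preparation. There its log2 fold change was -0.065 in WT and -0.53 in FMR1 KO, with adjusted p-values of 0.89 and 0.22 (edgeR), and without the RNA-seq libraries that hold most counts on 10 genes it was 0.28 and -0.68. Leaving those out keeps only replicate 1 of low nuclease FMR1 KO RNA-seq, so FMR1 KO values of that setting are given as sizes alone. Whether the preparations differ in the occupancy of Grm3 was not tested. Grm4 was low there too, at -2.07 in WT and -1.71 in FMR1 KO, with adjusted p-values of 0.0011 and 0.036 (edgeR). Grm2, which did not pass in the standard preparation, passed there as lower in WT, at -0.94 with an adjusted p of 0.0020, and at -0.97 (0.0011) without those RNA-seq libraries. In FMR1 KO Grm2 was at -0.82 (adjusted p = 0.27), and at -1.61 without them, against 0.71 in the standard preparation. Without those RNA-seq libraries the FMR1 KO value of Grm4 was -2.05. The annotated exons of Grm3 hold little beside its coding sequence, a larger coding share than 97.5% of genes, and over all genes the coding share had a Spearman's rho of 0.22 with WT occupancy and 0.24 with FMR1 KO occupancy. The part of this share in the value for Grm3 was not tested.

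Grm5, the group I receptor coupled to Gq, did not pass the test of occupancy. It had 18.1, 17.99 and 31.0 CPM in WT pellets and 96.0, 53.3 and 54.0 CPM in WT RNA-seq, and 25.7, 15.5 and 26.1 CPM in FMR1 KO pellets against 52.2, 53.9 and 54.6 CPM in FMR1 KO RNA-seq. Its RPFs thus lay below its RNA in every library, by about as much as those of the typical gene. The fitted log2 fold change was -0.43 (95% interval -1.30 to 0.44) in WT and -0.17 (-0.41 to 0.07) in FMR1 KO. Leaving out 1 library moved the WT value to between -0.80 (without pellet replicate 3) and -0.073 (without RNA-seq replicate 1).

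Of the remaining receptors, Grm7, a presynaptic group III receptor of active zones, had an occupancy of 0.14 (95% interval -1.09 to 1.38) in WT and 0.39 (-0.60 to 1.37) in FMR1 KO on the log2 scale. Grm8, also a presynaptic group III receptor, was at -0.60 (-1.62 to 0.42) and 0.47 (-0.18 to 1.12). Grm2, the group II receptor best known as a presynaptic autoreceptor, was at -0.16 (-0.74 to 0.41) and 0.71 (-1.13 to 2.55). These intervals are wide and none leaves out 0. A single library moved several of them. WT RNA-seq replicate 1 held 57.0 CPM of Grm7 and 16.8 CPM of Grm8, against 21.6 to 26.5 and 6.43 to 7.96 CPM in the other WT RNA-seq libraries, and 12.5 CPM of Grm2 against 18.6 and 21.2. Grm5, which was also high there, Grm7 and Grm8 span 550740, 921650 and 860060 bp, and Grm2 spans 12988 bp. Against the other WT RNA-seq libraries, that library had a median log2 of 0.185 over the 973 genes of 200 kb or more and of -0.026 over 3499 genes under 10 kb. The part of span in these values was not tested. FMR1 KO pellet replicate 2 held 21.9 CPM of Grm2 against 6.74 and 8.33 CPM in the others.

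**Figure D2:**
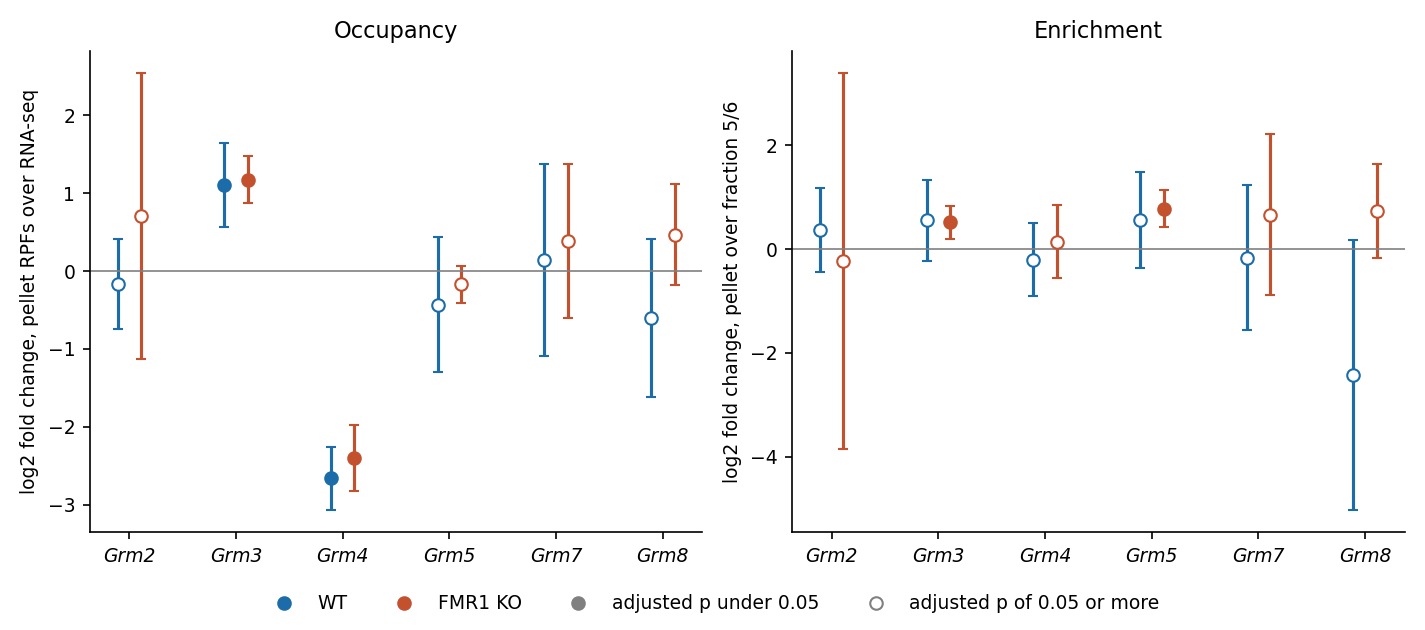
Log2 fold changes of the 6 receptors with 95% intervals, for pellet RPFs over RNA-seq (left) and pellet over fraction 5/6 RPFs (right), in WT and FMR1 KO, with 3 libraries in each group. Filled points passed an adjusted p of 0.05, as Grm3 and Grm4 did in both genotypes on the left (1.10 and -2.66 in WT) and Grm3 and Grm5 in FMR1 KO on the right (0.51 and 0.78).

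The ratio of 2 receptors' counts inside a library does not depend on any scaling of that library. There are 15 pairs of members, and their ratios were compared between 6 pellet and 6 RNA-seq libraries of the standard preparation by an exact 2-sided permutation test within genotypes, whose smallest possible p is 0.005. These tests were added after the values were seen, and the p-values printed with the ratios are not adjusted for the number of pairs. Adjusted by Benjamini-Hochberg over the 15 pairs, a permutation p of 0.005 against RNA-seq became 0.0125, and 0.01875 in the low nuclease preparation. The standard permutation p of 0.045 for Grm5 and Grm7 became 0.075. Grm3 had 1.18 to 1.75 counts for each count of Grm4 in RNA-seq and 14.9 to 22.8 in pellet RPFs, a 12.7-fold difference (log2 difference 3.67, SE 0.13, exact permutation p = 0.005). No library of one material came near the range of the other. In the low nuclease preparation the same ratio was 1.14 to 4.12 in RNA-seq and 5.85 to 9.31 in the pellet, a 3.16-fold difference with an exact permutation p of 0.005. The direction was the same and the groups again did not overlap.

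Grm4 was also displaced against each of the other receptors. The ratio of Grm4 to Grm5 was 0.256 to 0.487 in RNA-seq and 0.0596 to 0.109 in pellet RPFs. That of Grm4 to Grm7 was 0.431 to 1.22 in RNA-seq and 0.0591 to 0.244 in the pellet, and that of Grm4 to Grm8 was 1.46 to 4.08 and 0.233 to 0.800. Grm2 had 0.509 to 1.01 counts for each count of Grm4 in RNA-seq and 3.25 to 19.6 in the pellet. Each of these pairs had an exact permutation p of 0.005 and no overlap between pellet and RNA. In the low nuclease preparation the ratio of Grm4 to Grm5 (0.133 to 0.396 in RNA-seq, 0.0848 to 0.122 in the pellet) and that of Grm2 to Grm4 (0.800 to 1.74 and 1.86 to 4.11) did not overlap either, each with an exact permutation p of 0.005. Those of Grm4 to Grm7 (0.194 to 1.17 and 0.232 to 0.268, exact permutation p = 0.020) and of Grm4 to Grm8 (0.377 to 4.65 and 0.213 to 1.14, p = 0.055) overlapped there.

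Grm3 was displaced against Grm5 in the opposite sense to Grm4. It had 0.448 to 0.624 counts for each count of Grm5 in RNA-seq and 1.36 to 1.62 in the pellet, a 2.704-fold difference (exact permutation p = 0.005). The low nuclease preparation gave 0.451 to 0.580 in RNA-seq and 0.716 to 1.03 in the pellet, 1.58-fold, again with an exact permutation p of 0.005. Against the other receptors Grm3 overlapped between the materials. In the standard preparation its ratio to Grm7 was 0.754 to 1.51 in RNA-seq and 1.14 to 3.67 in the pellet (exact permutation p = 0.025), and that to Grm8 was 2.56 to 5.70 and 4.48 to 11.9 (exact permutation p = 0.015). The ratio of Grm2 to Grm3 was 0.291 to 0.684 and 0.173 to 1.02 (exact permutation p = 0.065). In the pairs without Grm3 and Grm4 the ranges also overlapped, with exact permutation p-values from 0.045 for Grm5 and Grm7 to 0.795 for Grm2 and Grm7. The ratio of Grm7 to Grm8 was 3.33 to 3.84 in RNA-seq and 3.10 to 6.06 in the pellet.

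**Figure D3:**
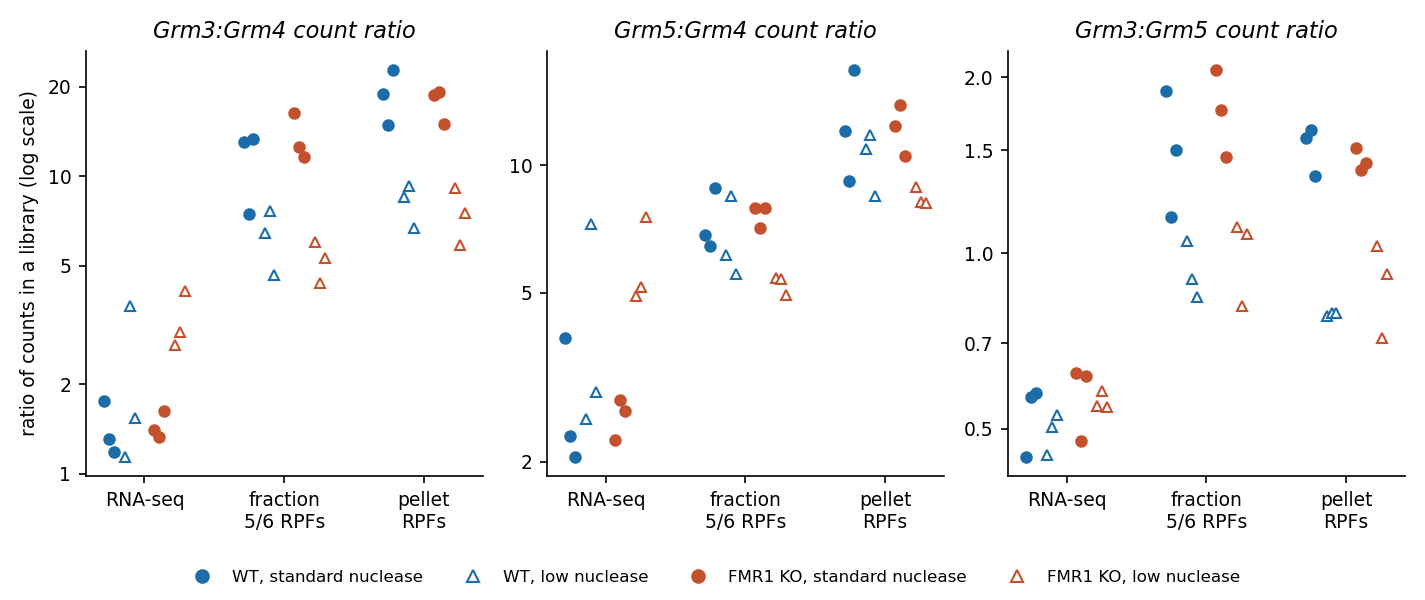
Ratios of the counts of 2 receptors inside each of the 36 libraries, on log axes, for Grm3 to Grm4, Grm5 to Grm4 and Grm3 to Grm5, by material, genotype and preparation. In the standard preparation the pellet points of Grm3 to Grm4 sit between 14.9 and 22.8 and the RNA-seq points between 1.18 and 1.75, with fraction 5/6 between 7.47 and 16.3.

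Enrichment, the level of pellet RPFs relative to fraction 5/6 RPFs, asks which mRNAs are more common on ribosomes of the granule pellet than on polysomes. In WT none of the 6 receptors passed the edgeR test, none had an unadjusted p under 0.05 and none passed with DESeq2, which gave no adjusted p for Grm8. Of all genes 0.0152% (2 genes, both higher) passed the edgeR test, whereas most of the calls were lower with DESeq2 (10 higher and 80 lower) and with library size alone (4 and 26). In edgeR 11.4% of all genes passed with replicate 3 of WT fraction 5/6 left out, again with no member among them. In FMR1 KO Grm3 and Grm5 were called higher in the pellet, 2 of 6 members against 11.8% of all genes called higher, 2.18% lower and 14.0% called in either direction. The median of the members was 0.10 in WT and 0.59 in FMR1 KO, beside -0.0015 and 0.0097 for all genes tested.

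Grm5 had 25.7, 15.5 and 26.1 CPM in FMR1 KO pellets and 12.3, 13.5 and 25.9 CPM in FMR1 KO fraction 5/6. Replicate 3 of fraction 5/6 overlaps the pellets and the others lie below them. The log2 fold change of Grm5 was 0.78 ± 0.16 (SE), 1.71-fold, with an adjusted p of 0.0091 (edgeR quasi-likelihood test). In WT Grm5 had 18.1, 17.99 and 31.0 CPM in the pellet and 11.97, 11.0 and 23.8 CPM in fraction 5/6, with a log2 fold change of 0.56 (95% interval -0.37 to 1.49) and an adjusted p of 0.65 in that test.

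Grm3 had 38.9, 21.5 and 37.3 CPM in FMR1 KO pellets and 25.3, 23.7 and 37.8 CPM in FMR1 KO fraction 5/6. The groups overlap. Its log2 fold change was 0.51 ± 0.14 (SE), 1.43-fold, with an adjusted p of 0.037 (edgeR quasi-likelihood test). In WT Grm3 was at 28.5, 29.2 and 42.0 CPM in the pellet and 22.7, 12.7 and 35.7 CPM in fraction 5/6, a log2 fold change of 0.56 (95% interval -0.23 to 1.34) with an adjusted p of 0.65. With replicate 3 of WT fraction 5/6 left out, the WT value was 0.90 for each of Grm3 and Grm5, with adjusted p-values of 0.091 and 0.20 in edgeR. Without replicate 3 of the WT pellet it was 0.28 for Grm3 and 0.17 for Grm5.

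The call of Grm3 in FMR1 KO was close to the threshold, while that of Grm5 held with DESeq2 (0.75, adjusted p = 0.0037). Grm3 lost its call with DESeq2 (0.48, adjusted p = 0.058), with Cdk8 kept (0.47, 0.063), without FMR1 KO pellet replicate 3 (0.50) and without fraction 5/6 replicate 2 or 3 (0.46 each), so its size stayed near the 0.51 above. Both genes lost their calls with all 18 standard libraries in 1 fit (Grm3 0.49, Grm5 0.76) and without FMR1 KO fraction 5/6 replicate 1 (0.54 and 0.69) or pellet replicate 1 (0.36 and 0.66). With library size alone, where neither passed, they were at 0.19 and 0.41. The low nuclease preparation called Grm3 at 0.83, Grm5 at 1.04 and Grm7 at 1.29 in WT, with edgeR adjusted p-values of 0.018, 0.019 and 0.024, and called none in FMR1 KO, where Grm3 was at 0.73 and Grm5 at 0.92. Of all genes 24.4% were called there in WT and 20% in FMR1 KO. Each of Grm3 and Grm5 was above 0 in both genotypes and both preparations. The difference between genotypes is given below, and that between preparations was not tested.

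Other receptors did not pass the test of enrichment. Grm4 was at -0.20 (95% interval -0.91 to 0.50) in WT and 0.14 (-0.56 to 0.85) in FMR1 KO, and Grm7 at -0.17 (-1.57 to 1.22) and 0.66 (-0.89 to 2.21). With replicate 3 of WT fraction 5/6 left out, the WT value was -0.024 for Grm4, -0.50 for Grm7 and 0.54 for Grm2, beside 0.37 for Grm2 with it. Inside libraries, Grm4 had 0.113 to 0.155 counts for each count of Grm5 in fraction 5/6 and 0.0596 to 0.109 in the pellet, which do not overlap (exact permutation p = 0.005), and 0.118 to 0.203 against 0.0848 to 0.122 in the low nuclease preparation (exact permutation p = 0.005), which overlap slightly. Without replicate 3 of WT fraction 5/6, a setting added after the data were seen, the standard fraction 5/6 range was 0.126 to 0.155 (exact permutation p = 0.010). Grm4 and Grm5 were the only pair of the 15 whose standard pellet and fraction 5/6 ranges did not overlap. Adjusted by Benjamini-Hochberg over the 15 pairs, their standard permutation p of 0.005 became 0.075, and no other pair had a lower value. None of the 15 thus passed the adjusted threshold against fraction 5/6 in the standard preparation. In the low nuclease preparation the adjusted p of Grm4 and Grm5 was 0.0375. The ratio of Grm3 to Grm4 was 7.47 to 16.3 in fraction 5/6 and 14.9 to 22.8 in the pellet (exact permutation p = 0.010), and that of Grm3 to Grm5 was 1.16 to 2.06 and 1.36 to 1.62 (exact permutation p = 0.40). Grm4 gave only 14 to 33 counts in each of these standard RPF libraries.

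Grm8 and Grm2 each had 1 fraction 5/6 library far from the others. Grm8 stood at 5.42, 2.95 and 45.1 CPM in WT fraction 5/6, the last being the library labelled WT fraction 5/6 replicate 3, where 555 counts were read against 26 and 90. In WT pellets it was at 2.68, 2.45 and 4.11 CPM. The WT enrichment of Grm8 was -2.42 (95% interval -5.03 to 0.18) with that library and -0.46 without it. Grm2 stood at 4.75, 3.94 and 70.0 CPM in FMR1 KO fraction 5/6, and its FMR1 KO enrichment was -0.23 (95% interval -3.85 to 3.40) with all libraries and 1.72 without replicate 3.

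The comparison of FMR1 KO with WT asks what the loss of FMRP changes. No member passed the edgeR test of FMR1 KO against WT in pellet RPFs, fraction 5/6 RPFs, RNA-seq, occupancy or enrichment. Over all genes 0.0152% passed in pellet RPFs, 0.0735% in RNA-seq (0.0306% higher and 0.0429% lower), 0.0730% in occupancy (0.0548% higher and 0.0183% lower) and 0% in fraction 5/6 RPFs and in enrichment. DESeq2 also called 0 members in each, though it gave no adjusted p for Grm8 in fraction 5/6 RPFs or for Grm2 and Grm8 in enrichment. In edgeR 1 member had an unadjusted p under 0.05, Grm8 in enrichment.

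Grm5 pellet RPFs differed between genotypes by a log2 of -0.0066 (95% interval -0.67 to 0.65), which leaves room for a change from 0.631-fold to 1.57-fold. Grm3 differed by -0.04 (-0.56 to 0.47) and Grm4 by 0.11 (-0.54 to 0.75). The samples of each genotype overlap for all 3 genes. Grm7 differed by -0.21 (-1.49 to 1.07), Grm8 by 0.45 (-0.45 to 1.35) and Grm2 by 1.00 (-0.72 to 2.73), the last with 5.55 to 8.56 CPM in WT and 6.74 to 21.9 CPM in FMR1 KO.

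In RNA-seq the differences of FMR1 KO from WT were 0.07 for Grm2 (95% interval -0.45 to 0.60), -0.16 for Grm3 (-0.50 to 0.19) and -0.20 for Grm4 (-0.44 to 0.04). Those of Grm5, Grm7 and Grm8 were -0.31 (-0.82 to 0.20), -0.50 (-1.42 to 0.42) and -0.67 (-1.49 to 0.15), and WT RNA-seq replicate 1 enters all of them. Without it Grm5 was at 0.024, Grm7 at 0.038, Grm8 at -0.14 and Grm2 at -0.12. Grm3, which spans 239630 bp and had 43.0 CPM in that library against 30.2 and 31.0 CPM in the others, was then at 0.022.

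The difference of FMR1 KO from WT in occupancy ranged from 0.11 for Grm3 (95% interval -0.51 to 0.72) to 1.10 for Grm8 (-0.12 to 2.33). That of Grm4 was 0.30 (-0.22 to 0.82), that of Grm5 was 0.29 (-0.56 to 1.15), that of Grm7 was 0.28 (-1.27 to 1.82) and that of Grm2 was 0.91 (-0.76 to 2.58). With each library left out in turn, all but Grm4 and Grm8 changed sign, as Grm5 (-0.043 to 0.64) and Grm7 (-0.26 to 0.65) did. In enrichment the differences were -0.07 for Grm3 (-0.87 to 0.73), 0.19 for Grm5 (-0.76 to 1.13), 0.32 for Grm4 (-0.52 to 1.16), 0.80 for Grm7 (-1.13 to 2.74) and -0.64 for Grm2 (-3.67 to 2.39). Grm8 gave 3.10 (0.37 to 5.83) with an unadjusted p of 0.030 and an adjusted p of 0.91 in edgeR. This value rests on the library labelled WT fraction 5/6 replicate 3 and was 1.18 without it. The enrichment differences were then -0.40 for Grm3, 0.16 for Grm4, -0.13 for Grm5, 1.16 for Grm7 and -0.77 for Grm2, with the sign of Grm5 reversed. In fraction 5/6 the differences were 0.024 for Grm3, -0.22 for Grm4, -0.20 for Grm5, -1.03 for Grm7, -2.67 for Grm8 and 1.62 for Grm2. Without replicate 3 of WT fraction 5/6 they were 0.34, -0.062, 0.11, -1.37, -0.75 and 1.76 in the same order of genes. Without both fraction 5/6 libraries numbered 3, an alternative added after the data were seen, those of Grm8 and Grm2 were -0.49 and -0.25.

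**Figure D4:**
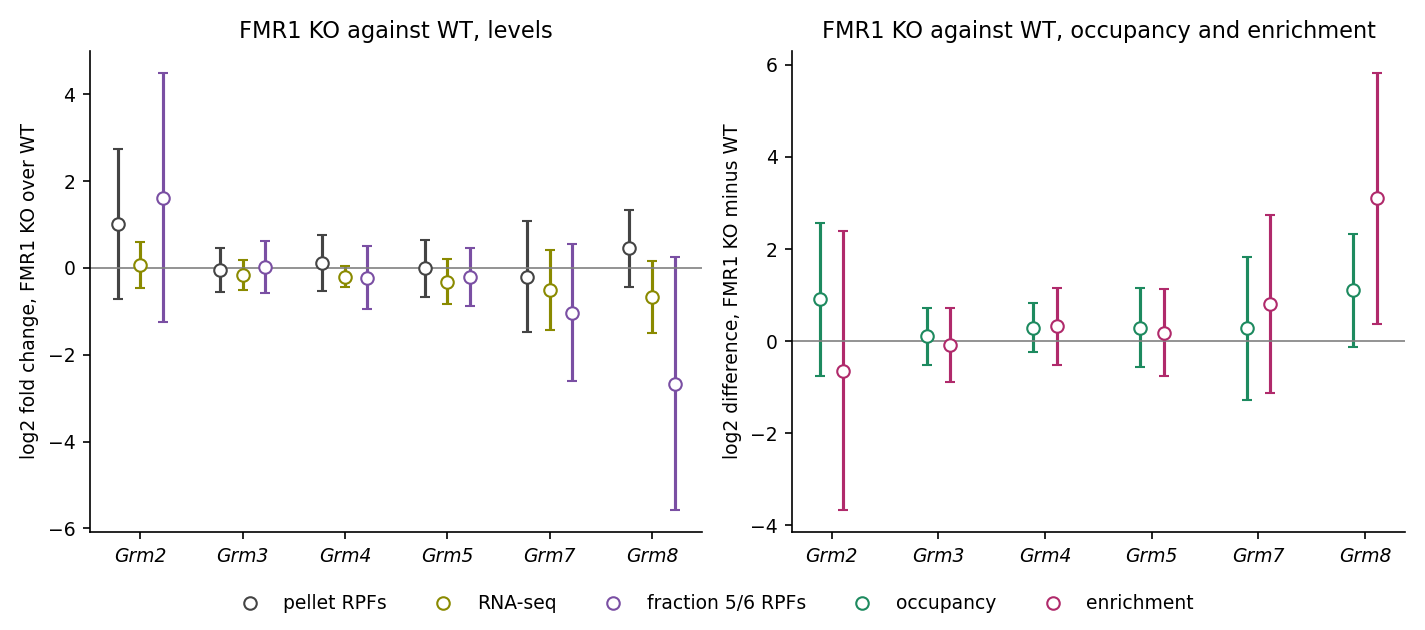
FMR1 KO against WT for the 6 receptors, as log2 differences with 95% intervals, in pellet RPFs, RNA-seq and fraction 5/6 RPFs (left) and in occupancy and enrichment (right), with 3 libraries in each group. No point passed an adjusted p of 0.05, and in pellet RPFs the intervals of Grm3, Grm4 and Grm5 are narrower than those of the others (log2 differences of -0.04, 0.11 and -0.0066 for these 3), and that of Grm2 is the widest.

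RPF peaks are stretches of an mRNA where protected fragments pile up. Grm3 carried peaks in all 6 pellet libraries, 17, 3 and 12 in WT and 12, 2 and 10 in FMR1 KO, and in 4 of 6 fraction 5/6 libraries, 6, 0 and 6 in WT and 5, 2 and 0 in FMR1 KO. The last of the WT values is from the library with Fmr1 at 3.17 CPM. The pellet libraries with the fewest peaks were those with the fewest Grm3 counts, which were 607, 357 and 501 counts in WT and 600, 269 and 466 in FMR1 KO. The other 5 members carried none, including Grm5 with 194 to 397 counts in a pellet library, among libraries with peaks on 3430 to 5181 transcripts in the pellet and 2439 to 5021 in fraction 5/6. Peaks were called within each library by the authors, so a gene without one is a gene on which none was called at its depth.

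On the Grm3 transcript of 3049 nt, 53 of 56 pellet peaks lay in the coding sequence and the others upstream of the start codon. Their heights ran from 1 to 23 with a median of 12, and no position had a peak in every pellet library. Around codon 474, printed above, peaks lay within 6 nt in WT pellet replicates 1 and 3 and FMR1 KO pellet replicate 3, with heights of 10 to 20. FMR1 KO fraction 5/6 replicates 1 and 2 also had a peak there. Around codon 636 peaks lay in WT pellet replicates 1 and 3 and FMR1 KO pellet replicate 1, with heights of 8 to 16, and in no fraction 5/6 library.

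Several peaks lay near the start codon shown above. WT pellet replicates 1, 2 and 3 had one at 12, 31 and 22 nt from it, FMR1 KO pellet replicate 1 at 20 nt and WT fraction 5/6 replicate 1 at 22 nt. The tallest pellet peak, of height 23, lay 100 nt from the start codon in FMR1 KO pellet replicate 1, and FMR1 KO pellet replicate 3 had one at 101 nt. The letters AGGA or TGGA, read on the mRNA strand only, were in 23 of 53 windows of 35 nt around the pellet peaks in the coding sequence, 43.4%, and in 35.2% of all windows of that length there. Windows overlap between libraries, so this is a description.

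**Figure D5:**
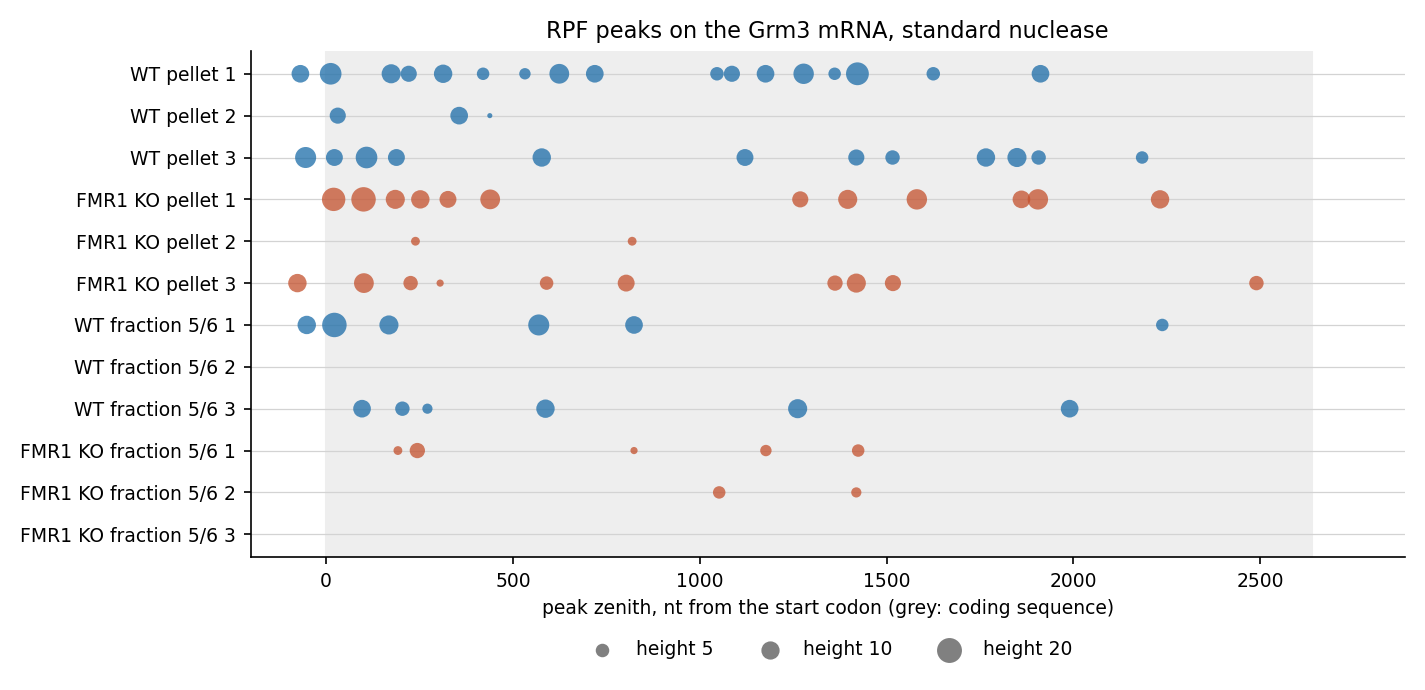
Positions of RPF peaks on the Grm3 mRNA in the 12 standard nuclease RPF libraries, in nt from the start codon, with the coding sequence in grey and the area of a point in proportion to the height of the peak. WT pellet replicate 1 has 17 peaks, 1 of them upstream of the start codon and the others spread over the coding sequence, and 2 of the fraction 5/6 libraries have none.

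The genes most like a member were those with the highest Pearson's r of log2 CPM over the 36 libraries. The libraries share material, preparation and depth, so r describes likeness across these and carries no test. Grm5 was most like Gria1 (r = 0.987), an AMPA receptor subunit, Ntrk2 (0.984), the receptor of BDNF, and Syt1 (0.981), the calcium sensor of synaptic vesicles. Grm3 was most like Rpn2 (0.977), a subunit of the oligosaccharyltransferase, Ctsb (0.974), a lysosomal protease, and Hspa13 (0.974), an HSP70 relative. Grm4 was most like Ildr2 (0.991), Bri3bp (0.989) and Slc22a23 (0.987). Grm2, Grm7 and Grm8 had lower values, up to 0.876 with Ephb2, 0.907 with Sdk1 and 0.743 with Lmf1. Among the members themselves r was highest for Grm4 and Grm5 (0.899) and for Grm3 and Grm5 (0.863), and lowest for Grm2 and Grm8 (0.215).

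Partners and effectors of these receptors were read from the same fits. Of 35 genes, 16 were called higher and 12 lower in WT occupancy, and 15 and 13 in FMR1 KO, against the shares of all genes given above. Their median was 0.21 in WT and 0.01 in FMR1 KO on the log2 scale. On the Gq side 6 of 13 were higher and 4 lower in WT. The phospholipases Plcb1 and Plcb4 (1.51 and 1.49 in WT), the kinase Prkca (0.94) and neurochondrin Ncdn (1.27) were among the higher, and the scaffolds Homer1 and Homer2 (-0.44 and -4.12), the G protein Gna11 (-0.54) and Dagla (-1.39), which makes an endocannabinoid, were lower. On the Gi/o side, with 4 of 8 higher and 3 lower, Gnai3 (0.83), Gnao1 (0.70), Gnai1 (0.33) and Rgs4 (0.82) were higher, and the adenylyl cyclases Adcy1 (-3.19) and Adcy5 (-2.65) and Gnai2 (-0.51) lower, each passing the edgeR test.

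Among trafficking partners, Pick1 (1.40) and Grip1 (0.45), PDZ proteins that bind receptor tails, were higher in WT occupancy. Elfn1 (-2.03) and Elfn2 (-1.96), postsynaptic proteins that bind group III receptors across the synapse, were lower, as were Siah1a (-2.19) and Arrb1 (-1.03). Among genes tied to receptor-dependent long-term depression, Map1b (2.36), Arc (0.66) and Eef2k (0.44) were higher and the phosphatase Ptpn5 (-1.98) lower. In FMR1 KO enrichment 5 of the 35 were called higher and none lower, among them Map1b (2.68), Itpr1 (1.43), Elfn2 (1.14) and Plcb4 (0.64), a share of the list near the 11.8% of all genes called higher there. None of the 35 was called in WT enrichment or in any comparison of the genotypes.

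Of 8 other class C receptors tested, Gabbr1 (-0.91), Gabbr2 (-1.31), both subunits of the GABA-B receptor, and the orphan receptor Gprc5b (-1.23) were lower in WT occupancy and none higher, a share near the 34.4% of all genes called lower there. In FMR1 KO the same 3 were lower (-0.97, -1.21 and -1.13), beside 35.2% of all genes. In FMR1 KO enrichment, Gabbr1 (0.51) and Gabbr2 (0.72) were higher, 2 of 5 tested, beside 11.8% of all genes.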

How the data were processed

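The members are the genes Grm2, Grm3, Grm4, Grm5, Grm7 and Grm8, matched by gene name. The members, the gene lists and the tests were chosen with earlier results of these data known.

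The authors made the counts from trimmed reads (Cutadapt 2.10, Bowtie2 2.3.5, STAR 2.7.8a, SAMtools 1.19.2 and featureCounts 2.2.0, with build GRCm38), and the deposited values are whole counts for each gene without normalization. The RPF peaks are intervals on Ensembl transcripts called in each library by the authors, with a height that is a coverage signal in the deposited files and is not scaled between libraries. Coordinates, exon lengths and sequences were read from GENCODE M21, which is on GRCm38. Whether counting used strand is not given in the sources used here. No row of the table lacked a gene name.

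Levels are CPM, the counts scaled to the library's total without Cdk8. Each comparison was fitted on the whole table with the quasi-likelihood test of edgeR 4.0.16 in R 4.3.3, and p-values were adjusted by Benjamini-Hochberg over all genes tested, with a threshold of 0.05. Each fit held only the groups compared, protein-coding genes kept by filterByExpr, TMM scaling and no replicate term. 26 non-coding genes were left out, and 27 genes without an annotation entry were kept. Genes were named by rule: all members, Fmr1, Cdk8, up to 4 called genes of each list in each direction, and the 3 genes most like each member. Some genes of the lists are not reported here. Likeness is Pearson's r of log2 CPM with a prior count of 2 over 36 libraries. Ratios of 2 members' counts within a library were compared by an exact permutation test that shuffled library labels within genotypes. Figures were drawn with matplotlib 3.10.9, and tables were handled with Python 3.11.15, pandas 2.3.3 and numpy 2.4.6. The fit and the permutation were tested on simulated data. Alternatives were DESeq2 1.42.0, library size alone, Cdk8 kept, no filter, all standard libraries in 1 fit, a replicate block, the low nuclease preparation and leaving out each library. The ratios and 2 settings that leave out libraries which stand apart were added after the data were seen.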

Additional observations from a re-analysis of the deposited data

Results flagged for a closer look

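The low nuclease RPF libraries enter the fits above only as an alternative, though they are among the 36 libraries behind the likeness of genes, and 2 FMR1 KO values there were more than 2 times the highest WT library of the same fraction. Grm2 stood at 1742 CPM in FMR1 KO fraction 5/6 replicate 1, from 71650 counts, against 23.3 and 17.6 CPM in the other FMR1 KO libraries and 18.3 to 43.3 CPM in WT. Grm8 stood at 44.2 CPM in FMR1 KO pellet replicate 3, against 4.63 and 16.2 CPM in the other FMR1 KO libraries and 8.83 to 16.5 CPM in WT. Grm8 was also at 48.1 CPM in low nuclease WT fraction 5/6 replicate 3.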

How the results depend on the processing

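Of 135 alternative counts of called members 119 kept the main value within 1.5 times, and of 810 alternative values of single members 692 kept their direction and their side of the threshold. The cause of the others was not tested. Members called in WT and FMR1 KO occupancy rose from 2 to 4 with library size alone, where 76% and 70.1% of all genes were called. FMR1 KO occupancy called 1 with the low nuclease preparation, beside 28.2% of all genes. WT enrichment called 3 with the low nuclease preparation, beside 24.4% of all genes. FMR1 KO enrichment called 1 with DESeq2 (15.6% of all genes), 1 with Cdk8 kept (14.4%) and 0 with library size alone (3.61%). It called 0 with all 18 standard libraries in 1 fit (15.1%), 0 with the low nuclease preparation (20%) and 0 to 2 when each library was left out. With the replicate block it called 1, the call of Grm3 being lost (adjusted p = 0.057 in edgeR), and the block changed no other call. Replicate numbers did not pair the samples: none of 15 pairs of groups had all correlations of same-numbered deviations over 0.1, and they ran from -0.13 to 0.23. Under the block Grm2 in FMR1 KO enrichment was 0.30 and Grm5 in the genotype difference of pellet RPFs 0.060. Over all genes, calls in WT enrichment went from 2 to 90 with DESeq2, 30 with library size alone, 3801 with low nuclease, 4 with all libraries in 1 fit, 0 with the block and 1 to 1517 when each library was left out, the highest without WT fraction 5/6 replicate 3. Those in FMR1 KO enrichment went from 1861 to 481 with library size alone, 3121 with low nuclease and 957 to 2082 when each library was left out, and those in FMR1 KO occupancy from 10703 to 4311 with low nuclease. Between genotypes, calls went from 2 to 91 with DESeq2 and 120 with library size alone in pellet RPFs, from 0 to 77 and 67 in fraction 5/6, and with DESeq2 from 12 to 24 in RNA-seq, 12 to 58 in occupancy and 0 to 41 in enrichment. No member was among the calls between genotypes under any of these. Of 91 reversals, 87 were of values that had not passed the test, and the other 4 were of Grm3 in occupancy. In 4 the reversed value itself passed the test. Grm7 and Grm8 in FMR1 KO occupancy did so with library size alone (adjusted p = 0.0075 and 0.029), which moves all genes, and relative to the median gene they stood at 0.45 and 0.54 by TMM and 0.36 and 0.48 by library size. The others were Grm7 in WT enrichment with low nuclease (0.024) and Grm2 in FMR1 KO low nuclease occupancy without the uneven RNA-seq libraries. The last keeps only replicate 1 of FMR1 KO RNA-seq and is not a replicated result. WT occupancy still called 2 members with low nuclease, Grm2 and Grm4 in place of Grm3 and Grm4.

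With library size alone the log2 value was -0.062 for Grm3 and -1.03 for Grm7 in WT occupancy, and -0.56 for Grm2, -0.80 for Grm7 and -0.68 for Grm8 in FMR1 KO occupancy. It was -0.16 for Grm4 in FMR1 KO enrichment, 0.016 for Grm5 in pellet RPFs between genotypes, 0.076 for Grm4 and 0.14 for Grm5 in fraction 5/6, and -0.12 for Grm5 in the enrichment difference. For Grm5 in pellet RPFs between genotypes it was 0.00071 with Cdk8 kept and 0.0039 with all libraries in 1 fit.

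In the low nuclease preparation WT occupancy was -0.065 for Grm3 and -0.30 for Grm7, and FMR1 KO occupancy was -0.82 for Grm2, -0.53 for Grm3, -1.04 for Grm7 and -0.49 for Grm8. WT enrichment was 0.43 for Grm4 and 1.29 for Grm7. Between genotypes, pellet RPFs were at -0.53 for Grm2 and -0.30 for Grm4, fraction 5/6 at -0.41 for Grm3, and RNA-seq at -0.64 for Grm2, 0.027 for Grm3, 0.47 for Grm7 and 1.04 for Grm8. Occupancy differed by -0.45 for Grm3, -0.39 for Grm5 and -0.73 for Grm7, and enrichment by -0.15 for Grm4, -0.10 for Grm5 and -0.21 for Grm7. With the RNA-seq libraries that hold most counts on 10 genes left out, a setting added after the data were seen, WT occupancy was -0.18 for Grm7, and FMR1 KO occupancy was -1.61 for Grm2, -0.68 for Grm3 and -0.62 for Grm7. RNA-seq between genotypes was then 0.40 for Grm3, 0.27 for Grm5 and 0.0048 for Grm7, and occupancy differed by -0.60 for Grm2, -0.93 for Grm3, -0.89 for Grm5 and -0.40 for Grm7. That setting keeps only replicate 1 of low nuclease FMR1 KO RNA-seq, so its FMR1 KO and genotype values are sizes alone. Without both fraction 5/6 libraries numbered 3, Grm2 was at -0.25 in fraction 5/6 between genotypes and 1.24 in the enrichment difference.

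Leaving out each library in turn gave these ranges for values that changed sign. Grm2 ran from -1.28 to 1.72 in FMR1 KO enrichment, -0.33 to 0.98 in FMR1 KO occupancy, and between genotypes -0.12 to 0.26 in RNA-seq, -1.63 to 1.41 in enrichment, -0.40 to 2.099 in fraction 5/6, -0.087 to 1.21 in occupancy and -0.027 to 1.37 in pellet RPFs. Between genotypes Grm3 ran from -0.25 to 0.022 in RNA-seq, -0.40 to 0.21 in enrichment, -0.17 to 0.34 in fraction 5/6, -0.078 to 0.34 in occupancy and -0.19 to 0.23 in pellet RPFs, and Grm4 from -0.022 to 0.24 in pellet RPFs. Grm5 ran from -0.46 to 0.024 in RNA-seq, -0.13 to 0.58 in enrichment, -0.43 to 0.11 in fraction 5/6, -0.043 to 0.64 in occupancy and -0.20 to 0.38 in pellet RPFs between genotypes. Grm7 ran from -0.16 to 0.59 in FMR1 KO occupancy, -0.61 to 0.54 in WT enrichment, -0.28 to 0.71 in WT occupancy, and between genotypes -0.76 to 0.038 in RNA-seq, -0.26 to 0.65 in occupancy and -0.74 to 0.23 in pellet RPFs. Without changing sign, Grm3 ran from 0.28 to 0.90 and Grm5 from 0.17 to 0.90 in WT enrichment, and Grm5 from -0.80 to -0.073 in WT occupancy. Grm4 had 14 to 33 counts in a standard RPF library, and counting error at that depth limits the precision of its values.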

Other observations

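In low nuclease pellets Grm5 was at 122.4, 111.5 and 145.5 CPM in WT and 42.2, 121.2 and 76.9 CPM in FMR1 KO, and Grm3 at 95.6, 88.1 and 114.9 CPM in WT and 43.3, 86.8 and 70.9 CPM in FMR1 KO. Grm7 was at 44.8, 40.8 and 67.3 CPM in WT and 18.5, 60.0 and 35.1 CPM in FMR1 KO. Grm2 was at 39.6, 33.6 and 31.9 CPM in WT and 19.5, 29.9 and 18.5 CPM in FMR1 KO. The genotypes overlap for Grm4, Grm5, Grm7 and Grm8 and do not overlap for Grm2 and Grm3. The share of all genes without overlap was not determined. No member passed the edgeR test of the genotypes in pellet RPFs of that preparation, beside 0.0197% of all genes.

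The start codon of Grm4 printed above follows a 5′ untranslated region of 983 nt in the annotated transcript it was read from, with 5 upstream ATG triplets. That of Grm3 follows 182 nt with 1 such triplet. For Grm4 this transcript is not the one that gave its coding length, whose 5′ untranslated region is not given here. No relation of these to the RPF levels was tested.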
